A study of Mus musculus with 36 samples.

Results

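The genes described here are the 3 TAM receptors, Mertk, Axl and Tyro3, and their 2 ligands, Gas6 and Pros1. They were taken by symbol from the deposited expression tables, where all 5 were found among 24411 genes. Total RNA was sequenced from haematopoietic stem and progenitor cells (HSPCs) of mouse bone marrow that were either control (genotype given as WT) or Taf1 KO, a conditional knockout. Taf1 encodes the largest subunit of TFIID, the general factor that binds core promoters for RNA polymerase II, and the study followed how its loss affects genes of myeloid differentiation. Cells of both genotypes were taken at day 0, and at day 3 after culture in medium with 20% horse serum, SCF and IL-3. Each culture was then divided. A portion received GM-CSF and M-CSF to day 5 and M-CSF alone to day 7, here the macrophage course, and the rest received SCF, IL-3 and G-CSF to day 5 and G-CSF alone to day 7, here the granulocyte course. Each cytokine was at 50 ng/ml. The 12 groups of genotype, day and course held 3 libraries each, 36 in all. Ages, the means of inducing the deletion and whether replicates were separate mice are not stated, so p-values measure the spread between these libraries.

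TAM receptors are receptor tyrosine kinases of phagocytes. Gas6 and Pros1 (protein S) are secreted proteins that need vitamin K-dependent carboxylation, bind phosphatidylserine exposed on dying cells and, through another domain, the receptors, and so bridge the dying cell to the phagocyte. Gas6 is known to engage all the receptors, while Pros1 engages Tyro3 and Mertk. Mertk is best known for the clearance of apoptotic cells by resident macrophages, Axl for its induction in inflammation and by interferon, and both for damping cytokine signals after uptake. Mertk lies on chromosome 2 (chr2:128698956-128802894, plus strand) and Tyro3 on the same chromosome (chr2:119797733-119818104, plus strand). Axl lies on chromosome 7 (chr7:25757273-25788705, minus strand), Gas6 on chromosome 8 (chr8:13465374-13494490, minus strand) and Pros1 on chromosome 16 (chr16:62854307-62929346, plus strand). All of these are gene spans in GENCODE M21 on mm10.

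Because the deleted protein is part of the complex that binds core promoters, the 250 bases before the RefSeq start (GRCm38.p6) are shown for the genes whose level at day 7 is described most fully below. They are written 5′ to 3′ on the gene's strand, with each GC box, GGGCGG on either strand, in capitals.
Mertk (chr2:128698665-128698914, plus strand): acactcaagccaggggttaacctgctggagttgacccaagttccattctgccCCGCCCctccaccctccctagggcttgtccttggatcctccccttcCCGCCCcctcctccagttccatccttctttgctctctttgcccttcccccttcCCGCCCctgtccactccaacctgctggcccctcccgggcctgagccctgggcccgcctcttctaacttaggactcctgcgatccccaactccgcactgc
Axl (chr7:25788734-25788983, minus strand): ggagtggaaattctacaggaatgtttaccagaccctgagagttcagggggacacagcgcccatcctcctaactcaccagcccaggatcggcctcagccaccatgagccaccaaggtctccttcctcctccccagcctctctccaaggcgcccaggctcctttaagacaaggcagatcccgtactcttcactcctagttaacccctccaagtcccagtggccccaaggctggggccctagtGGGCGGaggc
Gas6 (chr8:13494536-13494785, minus strand): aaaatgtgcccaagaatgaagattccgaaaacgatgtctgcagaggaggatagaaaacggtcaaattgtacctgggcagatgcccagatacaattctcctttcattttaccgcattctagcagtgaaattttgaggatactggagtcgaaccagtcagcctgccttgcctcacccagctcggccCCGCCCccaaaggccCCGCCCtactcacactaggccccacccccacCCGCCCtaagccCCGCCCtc
All 5 genes matched the promoter table. The GC box was present in each, with 3 copies in Mertk, 1 in Axl, 3 in Tyro3, 4 in Gas6 and 5 in Pros1, and 32.7% of 32851 mouse promoters of the same length held it. None of the 5 held TATAAA (12.4% of promoters), CCAAT (33.8%), GGAAGT (19.7%), TGACTCA (4.46%) or AGGTCA (14.0%) on either strand. The GC content was 63.6% for Mertk, 60.0% for Axl, 73.2% for Tyro3, 54.8% for Gas6 and 64.4% for Pros1, against a median of 52.4% over all promoters. The single GC box of Axl began 10 bases before the start, whereas the 3 of Mertk began between 99 and 198 bases before it. These matches describe letters in a window, not binding.

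Levels are in TPM, a share of all transcripts scaled for transcript length, so that genes can be compared. TPM holds no read depth, and 10289 to 11226 genes reached 1 TPM in a library. Taf1 did not overlap between genotypes at any stage except day 3, and was the lower in knockout at every stage without overlap. At day 0 control libraries held 13.56 to 14.54 TPM and knockout libraries 8.50 to 9.06. At day 3, where the ranges overlapped, control libraries held 9.62, 10.9 and 11.5 TPM and knockout libraries 8.66, 10.3 and 9.06. The deleted part of Taf1 is not given, so this transcript level checks the labels only in part. Of 17 macrophage markers, all but 0 to 2 were detected in each group (Vsig4 was at 0 in 10 of 12 groups), and their summed level reached 18790 to 20600 TPM in control and 26480 to 41200 in knockout libraries at day 7 of the macrophage course. In the granulocyte course it also rose to 21820 to 28020 TPM in controls, beside granulocyte markers that summed to 122100 to 171900 TPM. In controls of the macrophage course at day 7 granulocyte markers summed to 37350 to 75240 TPM. Markers of both kinds were thus present in both courses, and which cells held them was not tested. In such bulk samples fewer cells of a type and less RNA per cell cannot be told apart. Stromal markers summed to at most 34.5 TPM in any library, with Col3a1 and Lum at 0 in most groups.

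In control cells the receptors and ligands were low or near 0 in fresh HSPCs and rose in the first 3 days. Mertk stood at 0.04, 0.05 and 0.04 TPM in the 3 control libraries of day 0 and at 7.31, 5.77 and 6.80 at day 3. Every day 3 library lay above every day 0 library, and the difference on the log2(TPM + 1) scale used for all tests was 2.86 ± 0.17 (SE, limma, adjusted p = 9.66e-12). Pros1 went from 3.79, 3.37 and 2.82 TPM to 11.2, 13.1 and 14.9, Gas6 from 0.27, 0.99 and 0.25 to 2.73, 3.58 and 3.96, and Tyro3 from 0.20, 0.19 and 0.17 to 1.29, 1.71 and 1.81. Axl went from 0.96, 1.12 and 0.83 TPM to 2.88, 1.98 and 1.98, the smallest log2 difference of the 5 (0.73 ± 0.18, adjusted p = 0.00109). All 5 genes thus passed as higher in controls at day 3, where 33.3% of 11953 tested genes did.

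After day 3 the 5 control profiles parted. Axl rose at each step of both courses, to 9.36, 11.1 and 14.6 TPM at day 7 of the macrophage course and to 9.36, 9.40 and 17.1 in the granulocyte course. Tyro3, the receptor best known from the nervous system, went the other way and fell between day 5 and day 7 in both courses, to 0.37, 0.39 and 0.38 TPM in the macrophage course (log2 difference from day 5 -0.82 ± 0.11, adjusted p = 6.53e-06) and 0.68, 0.57 and 0.49 in the granulocyte course (-0.52 ± 0.10, adjusted p = 0.000332). Mertk reached 9.96, 10.4 and 17.5 TPM at day 7 of the macrophage course and 14.2, 18.7 and 24 in the granulocyte course.

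The ligands parted as well. Gas6 did not pass from day 3 to day 5 of the macrophage course (2.23, 3.22 and 3.03 TPM) and then stood at 21.9, 27.5 and 88.6 TPM at day 7, a log2 difference of 3.35 ± 0.31 (adjusted p = 4.15e-08), or 2.75 without the third replicate of day 7 (adjusted p = 1.29e-09). In the granulocyte course it was first lower, at 1.07, 1.5 and 1.25 TPM at day 5, and then 3.88, 4.85 and 16.8 at day 7, a log2 difference of 1.82 with all libraries and 1.24 without the third of day 7 (adjusted p = 0.000333). Pros1 fell in the macrophage course to 11.1, 5.72 and 5.69 TPM at day 5 (-0.78 ± 0.20, adjusted p = 0.00344), and did not pass the test for any other step after day 3 in controls. By these steps, 3 members passed from day 3 to day 5 of the macrophage course, Mertk and Axl higher and Pros1 lower (50.3% of all tested genes passed in either direction). A further 3 passed from day 5 to day 7, Axl and Gas6 higher and Tyro3 lower (39.1% of all genes). In the granulocyte course 3 passed from day 3 to day 5, Mertk and Axl higher and Gas6 lower (44.3%), and 4 from day 5 to day 7, Mertk, Axl and Gas6 higher and Tyro3 lower (38.0%). The Mertk calls of 3 of these steps and the Gas6 call from day 3 to day 5 each depended on single libraries. Mertk was lost from day 3 to day 5 without the second control replicate of day 3 (adjusted p = 0.105 and 0.0564) or the first of day 5 (0.0939 and 0.0793), and from day 5 to day 7 of the granulocyte course without the third of day 7 (0.0557). Gas6 was lost without the second (0.0534) or the third control replicate of day 3 (0.0671).

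The third control replicate stood apart at day 7. It held the highest Mertk, Axl, Gas6 and Pros1 of its group in both courses, and in the macrophage course its granulocyte markers summed to 37350 TPM against 75240 and 73430 in the other two libraries. The part of that difference in the levels of the 5 genes was not tested, and the Gas6, Pros1 and Mertk results that moved most without this library are given both ways.

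**Figure D1:**
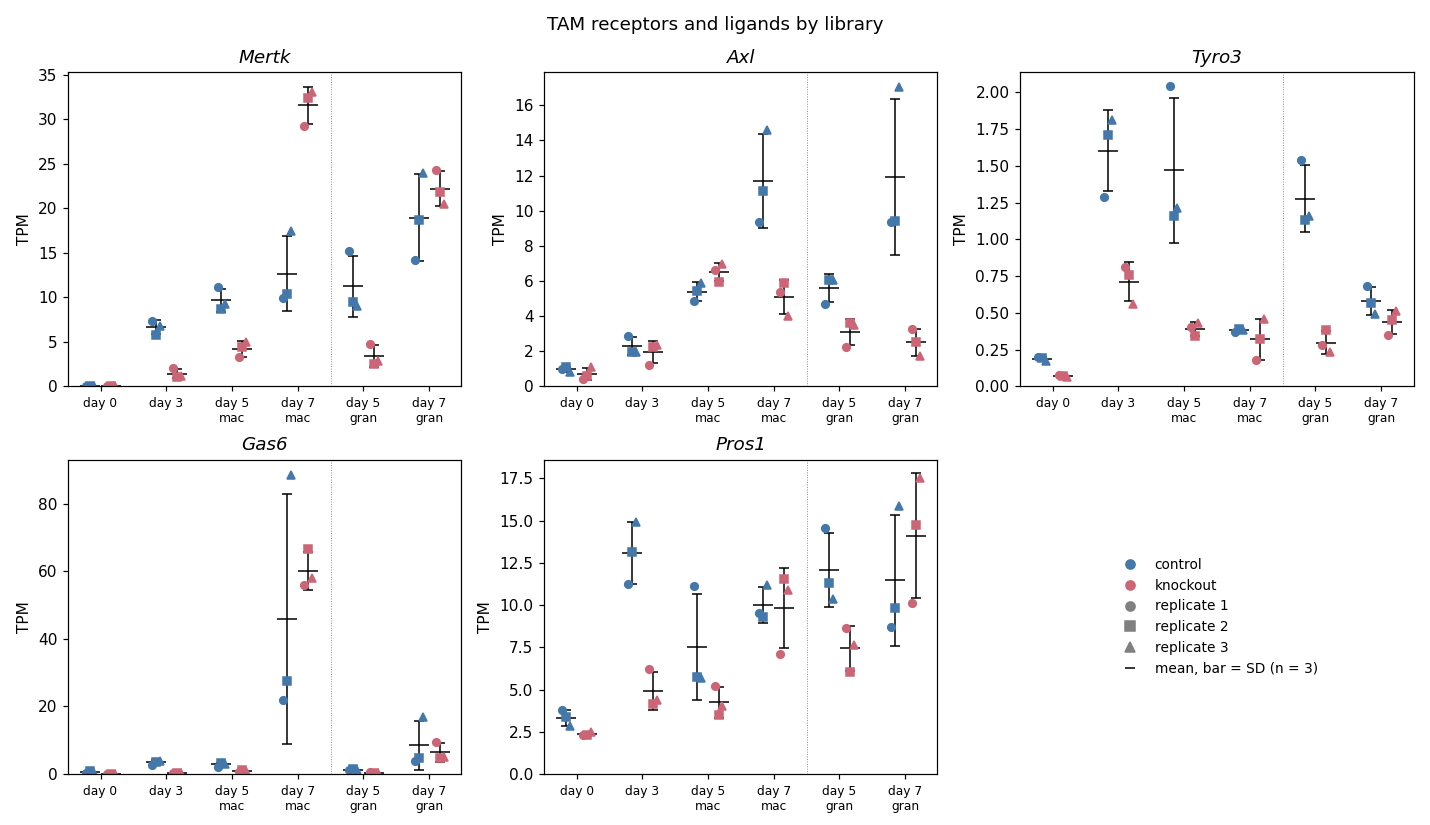
TPM of each gene (vertical axis, linear from 0, a separate scale for each panel) in the 36 libraries by day and course (horizontal axis, mac for the macrophage and gran for the granulocyte course). Points are libraries, coloured by genotype with a shape for each replicate, and black marks show the mean and SD of 3 libraries. Mertk of the knockout lies below control at days 3 and 5 and between 29.2 and 33.1 TPM at day 7 of the macrophage course, above every control library there.

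In fresh HSPCs the knockout differed little from control in these genes. None of the 5 passed the test at day 0 with limma, and none had an unadjusted p under 0.05, where 23.3% of all 11953 tested genes passed in either direction. Tyro3, Gas6 and Pros1 had knockout libraries that all lay below the control libraries, Tyro3 at 0.08, 0.07 and 0.06 TPM against 0.20, 0.19 and 0.17. The share of all tested genes whose groups separate in this way was not counted, here or at later stages. At levels this low the log2(TPM + 1) scale compresses differences, and with a pseudocount of 0.1 TPM Tyro3 passed (log2 difference -0.75, adjusted p = 0.0268). Mertk stayed near 0 in knockout cells of day 0 (0.07, 0.02 and 0.08 TPM) and Axl held 0.43, 0.56 and 1.11 TPM.

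At day 3, after expansion in SCF and IL-3, both ligands and 2 of the 3 receptors were lower in the knockout. Mertk stood at 2.01, 1.01 and 1.21 TPM in the knockout against 7.31, 5.77 and 6.80 in control, a ratio of means of 4.70 and a log2 difference of -1.68 ± 0.17 (adjusted p = 1.78e-07). Gas6 stood at 0.45, 0.22 and 0.25 TPM against 2.73, 3.58 and 3.96 (-1.75 ± 0.31, adjusted p = 0.0001). Pros1 stood at 6.19, 4.17 and 4.37 TPM against 11.2, 13.1 and 14.9 (-1.26 ± 0.20, adjusted p = 3.24e-05). The groups did not overlap for any of these 3 genes. Tyro3 was lower as well, at 0.81, 0.76 and 0.56 TPM against 1.29, 1.71 and 1.81 (-0.60 ± 0.11, adjusted p = 0.000156). Axl was the exception: the knockout held 1.23, 2.25 and 2.37 TPM and control 2.88, 1.98 and 1.98, the ranges overlapped, and the difference of -0.17 ± 0.18 did not pass (adjusted p = 0.452). Thus 4 of 5 were lower, where 26.7% of all tested genes were and 26.5% were higher (4281 lower and 2809 higher after median-of-ratios scaling), and the median of the 5 was -1.26 against -0.01 over all genes.

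On the log2(TPM + 1) scale the rise from day 0 to day 3 itself differed between genotypes for the same 4 genes. The interaction of genotype and day passed for Mertk, Tyro3, Gas6 and Pros1 (17.3% of all genes passed in that direction). For Mertk the difference of the rises was -1.70 ± 0.24 on the log2 scale (adjusted p = 5.9e-05), and this call held with each library left out in turn. The calls of the other three each depended on single libraries: Gas6 was lost without the third control replicate of day 0 (adjusted p = 0.0517), Pros1 without that library (0.0508) or the second knockout replicate of day 3 (0.0529), and Tyro3 in 8 of 12 cases. Gas6 was also lost with a pseudocount of 5 TPM (-0.57, adjusted p = 0.246) and Tyro3 with 0.1 TPM (-0.32, adjusted p = 0.500). By ratio of means the rise of Tyro3 was the larger in the knockout, 10.1 against 8.59 in control. Knockout cells did raise Mertk from day 0 to day 3 (1.17 ± 0.17), as they did Axl, Tyro3 and Pros1, 4 of 5 genes where 22.8% of all genes were higher (3642 higher against 3334 lower after median-of-ratios scaling, which sets the libraries' median genes equal). Gas6 did not pass in the knockout over that step (0.19 ± 0.31, adjusted p = 0.624). Beside these results, the summed macrophage markers stood at 2246 to 2452 TPM in knockout and 4769 to 5889 in control libraries at day 3, with 11 of 15 tested markers lower and none higher. Megakaryocyte and platelet markers summed to 297 to 653 TPM against 1469 to 2522, all 11 lower. The part of either in the lower TAM genes was not tested.

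At day 5 of the macrophage course the same 4 genes were lower in the knockout. Mertk held 3.24, 4.45 and 4.92 TPM against 11.1, 8.63 and 9.20 in control (-1.04 ± 0.17, adjusted p = 9.29e-05). Tyro3 held 0.40, 0.34 and 0.43 TPM against 2.04, 1.16 and 1.21 (-0.81 ± 0.11, adjusted p = 1.46e-05), and Gas6 0.56, 1.14 and 0.86 against 2.23, 3.22 and 3.03 (-1.05 ± 0.31, adjusted p = 0.0109). Neither pair of groups overlapped, but with a pseudocount of 5 TPM the Gas6 difference was -0.42 and did not pass (adjusted p = 0.206). Pros1 held 5.24, 3.48 and 4.01 TPM against 11.1, 5.72 and 5.69 (-0.65 ± 0.20, adjusted p = 0.0138), a call that was lost without the first control replicate (-0.37, adjusted p = 0.112), without the second knockout replicate (-0.55, adjusted p = 0.067) and after median-of-ratios scaling (-0.46, adjusted p = 0.0545). Axl was not lower here, with 6.65, 5.93 and 6.95 TPM against 4.84, 5.43 and 5.90. These knockout values all exceeded the control values but the difference did not pass (0.23 ± 0.18, adjusted p = 0.299). Against the 4 of 5 lower members, 37.9% of all tested genes were lower and 5.11% higher. This split depended on scaling, since after median-of-ratios scaling 2548 genes were lower and 2035 higher, and the median of all genes moved from -0.23 to -0.04. The median of the 5 was -0.81.

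At day 5 of the granulocyte course all 3 receptors were lower in the knockout. Mertk stood at 4.78, 2.49 and 2.87 TPM against 15.2, 9.47 and 9.02 in control (-1.48 ± 0.20, adjusted p = 1.14e-05). Tyro3 stood at 0.28, 0.38 and 0.23 TPM against 1.54, 1.13 and 1.16 (-0.81 ± 0.10, adjusted p = 2.81e-06). Axl stood at 2.26, 3.60 and 3.48 TPM against 4.66, 6.05 and 6.06 (-0.69 ± 0.22, adjusted p = 0.021). None of the 3 receptors overlapped between genotypes, but the Axl call was lost without the first knockout replicate (-0.53, adjusted p = 0.106) and without the second (adjusted p = 0.0616) or the third control replicate (adjusted p = 0.0613). Pros1 was also lower, with 8.64, 6.04 and 7.63 TPM against 14.6, 11.3 and 10.4 (-0.63 ± 0.20, adjusted p = 0.0208), and lost its call without the first control replicate (adjusted p = 0.094) or the second knockout replicate (adjusted p = 0.110). Gas6 lay at 0.53, 0.27 and 0.23 TPM against 1.07, 1.5 and 1.25 without overlap, yet did not pass (-0.76 ± 0.32, adjusted p = 0.0743). With a pseudocount of 0.1 TPM its log2 difference was -1.68 (adjusted p = 0.00734). In all, 4 of 5 passed as lower, where 22.8% of all tested genes did (2697 lower and 2086 higher after median-of-ratios scaling).

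Summed macrophage markers were again lower in knockout at day 5, at 3630 to 7410 TPM against 7706 to 10380 in the macrophage course and 2742 to 3289 against 7039 to 7592 in the granulocyte course. Granulocyte markers summed to 190100 to 249400 TPM in knockout and 58820 to 165600 in control libraries of the macrophage course. The first control replicate of day 5, with the highest Mertk, Tyro3 and Pros1 in both courses, had the lowest granulocyte sum, 58820 and 63750 TPM. The part of these marker levels in the differences of the TAM genes was not tested.

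By day 7 of the macrophage course the order had turned for Mertk, and Axl, which had not passed earlier in this course, was lower in the knockout. Mertk stood at 29.2, 32.4 and 33.1 TPM in the knockout against 9.96, 10.4 and 17.5 in control, 2.50 times higher by the means (1.30 ± 0.17, adjusted p = 1.01e-05). Axl stood at 5.39, 5.87 and 3.99 TPM against 9.36, 11.1 and 14.6, lower by a ratio of means of 2.30 (-1.05 ± 0.18, adjusted p = 0.000136). Neither gene overlapped between genotypes, and both kept direction and call in all 14 alternatives. Tyro3 no longer passed, at 0.18, 0.32 and 0.46 TPM against 0.37, 0.39 and 0.38, nor did Pros1, at 7.10, 11.5 and 10.9 TPM against 9.53, 9.30 and 11.2. Gas6 turned on 1 library. The knockout held 55.8, 66.6 and 58.1 TPM and control 21.9, 27.5 and 88.6, so that the ranges overlapped and the difference of 0.65 ± 0.31 did not pass (adjusted p = 0.104). Without the third control replicate the log2 difference was 1.26 (adjusted p = 3.65e-05). As counted with all libraries, 1 member was higher, where 27.4% of all tested genes were, and 1 lower, where 12.5% were. After median-of-ratios scaling 2176 genes were higher and 2617 lower.

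The granulocyte course at day 7 shared the lower Axl. Its level was 3.27, 2.52 and 1.74 TPM in the knockout against 9.36, 9.40 and 17.1 in control, lower by a ratio of means of 4.76 (-1.85 ± 0.22, adjusted p = 2.09e-06), in all 14 alternatives. It was the only member to pass, where 44.1% of 11905 tested genes passed in either direction and 32.1% as higher (2601 higher against 2779 lower after median-of-ratios scaling). Mertk stood at 24.3, 21.8 and 20.5 TPM against 14.2, 18.7 and 24 and the groups overlapped (0.24 ± 0.20, adjusted p = 0.343). Gas6 held 9.55, 4.72 and 5.00 TPM against 3.88, 4.85 and 16.8 (-0.16 ± 0.32, adjusted p = 0.707), with the sign turned to 0.42 without the third control replicate. Pros1 held 10.1, 14.7 and 17.5 TPM against 8.68, 9.84 and 15.9, and passed as higher only without that replicate (0.53, adjusted p = 0.0328). Tyro3 held 0.35, 0.45 and 0.51 TPM against 0.68, 0.57 and 0.49, and passed as lower only after median-of-ratios scaling (-0.22, adjusted p = 0.0354).

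**Figure D2:**
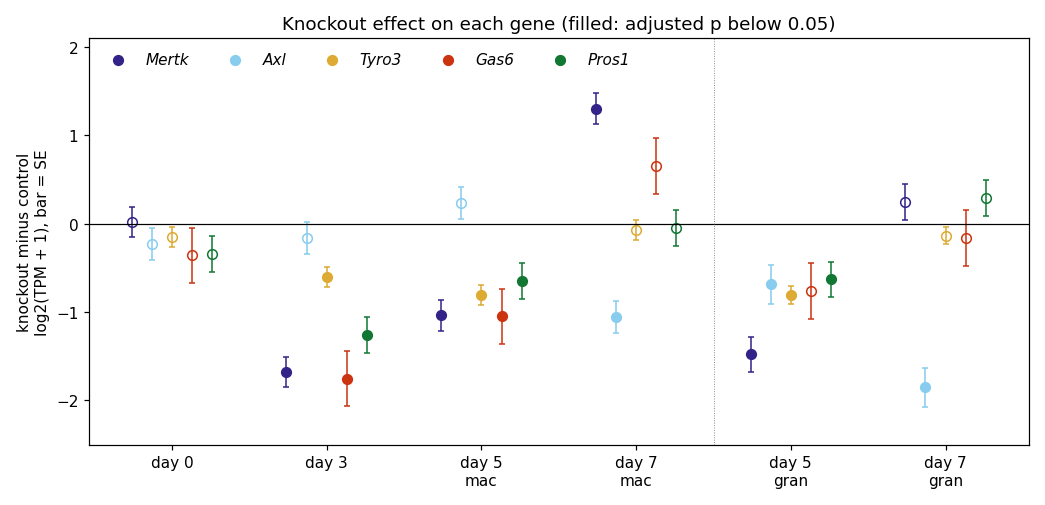
Knockout minus control on the log2(TPM + 1) scale (vertical axis, bars are SE) for each gene at the 6 stages (horizontal axis), filled where the adjusted p was below 0.05. Mertk moves from -1.68 at day 3 to 1.30 at day 7 of the macrophage course, while Axl moves from -0.17 to -1.05 there and to -1.85 in the granulocyte course.

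The knockout effect at day 7 differed from that at day 3 for all 5 genes in both courses, by the interaction test. In the macrophage course the change of effect was positive for 4 genes: 2.98 ± 0.24 for Mertk (adjusted p = 3.93e-08), 2.41 ± 0.44 for Gas6, 1.22 ± 0.29 for Pros1 and 0.53 ± 0.16 for Tyro3, where 21.8% of all tested genes passed in that direction. For Axl it was negative (-0.89 ± 0.25, adjusted p = 0.01), where 13.4% did. The granulocyte course gave 1.92 ± 0.29 for Mertk, 1.59 ± 0.45 for Gas6, 1.55 ± 0.29 for Pros1, 0.47 ± 0.14 for Tyro3 (22.3% of genes passed as positive, or 2792 positive and 2375 negative after median-of-ratios scaling) and -1.69 ± 0.31 for Axl (11.4% as negative). The 2 interactions share their day 3 libraries. With a pseudocount of 0.1 TPM the calls of Axl (adjusted p = 0.0608) and Tyro3 (0.0653) were lost in the macrophage course, and that of Tyro3 in the granulocyte course (0.0686). With 5 TPM Gas6 lost its call in the granulocyte course (0.52, adjusted p = 0.175).

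Within the knockout, most of the change in Mertk and Gas6 on the log2(TPM + 1) scale came between day 5 and day 7. By ratio of means Mertk rose more from day 0, where it was near 0, to day 3 (24.9). From day 5 to day 7 that ratio was 7.51 in the macrophage and 6.57 in the granulocyte course. Over this last step Mertk rose by 2.66 ± 0.17 on the log2 scale in the macrophage course (adjusted p = 1.11e-10) and 2.44 ± 0.20 in the granulocyte course (adjusted p = 1.19e-08). Gas6 rose by 5.05 ± 0.31 in the macrophage course (adjusted p = 6.07e-11) and 2.41 ± 0.32 in the granulocyte course. Pros1 rose by 1.04 ± 0.20 and 0.82 ± 0.20. Axl did not pass over that step in the knockout (-0.31 ± 0.18, adjusted p = 0.127, and -0.24 ± 0.22, adjusted p = 0.416), whereas the controls raised it by 0.97 ± 0.18 and 0.93 ± 0.22. These counts, 3 of 5 higher in each course, stood beside 58.1% of all tested genes in the macrophage course, or 3304 higher and 2743 lower genes after median-of-ratios scaling, and 27.9% in the granulocyte course (3360 and 2543). That scaling moved the median of all genes over the step in the macrophage course from 0.37 to 0.01, and Axl then passed as lower (-0.68, adjusted p = 0.00325). From day 3 to day 5 the knockout raised Mertk (1.12 ± 0.17) and Axl (1.37 ± 0.18) in the macrophage course (8.68% of all genes higher, or 2570 higher and 2550 lower after scaling) and Mertk alone in the granulocyte course (0.85 ± 0.20, with 3.57% of all genes higher, or 1078 higher and 1006 lower after scaling). Tyro3 was the 1 member lower in both of those steps (-0.30 ± 0.11 and -0.40 ± 0.10), beside 47.0% and 11.2% of all genes. The first of these calls was lost in 5 of 6 cases with a library left out, the second without the third knockout replicate of day 5 (adjusted p = 0.0562), and that of Mertk in the granulocyte course without the second knockout replicate of day 3 (adjusted p = 0.0548).

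The 2 courses were then compared within each genotype, with equal replicate numbers coming from divided cultures by the protocol. The tests did not pair these libraries. Gas6 was the member that marked the macrophage course. At day 7 it was higher there in controls (21.9 to 88.6 TPM against 3.88 to 16.8, log2 difference 2.28 ± 0.42, adjusted p = 0.000322) and in the knockout (55.8 to 66.6 against 4.72 to 9.55, 3.10 ± 0.42, adjusted p = 8.78e-06), with no overlap. Without the third control replicate of the macrophage course the control difference was 1.68 (adjusted p = 0.00244), without that of the granulocyte course 2.86, and without both 2.26. In controls it was the only member called, where 34.0% of all tested genes were higher in the macrophage course. In the knockout Axl was called too (3.99 to 5.87 TPM against 1.74 to 3.27, 0.80 ± 0.21, adjusted p = 0.00383), 2 of 5 where 35.3% of genes were. These splits also moved with scaling, to 2055 higher and 1956 lower genes in controls and 2679 and 2731 in the knockout, and the median of all genes moved from 0.20 to 0.02 and from 0.17 to 0.01.

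Mertk lay on opposite sides in the genotypes at day 7. In controls its mean was lower in the macrophage than in the granulocyte course (12.6 ± 4.21 against 19.0 ± 4.93 TPM, SD, n = 3). The log2 difference was -0.56 ± 0.23 (adjusted p = 0.0517, and 0.0531 with the replicate number as a block). That block was shared by both genotypes, so it did not model the pairs of divided cultures within each. Mertk was the lower in the macrophage course in each of the 3 control pairs: 9.96 against 14.2, 10.4 against 18.7 and 17.5 against 24 TPM. The difference passed without the third control replicate of the macrophage course (-0.81, adjusted p = 0.0133) or the first of the granulocyte course (-0.75, adjusted p = 0.0271). Without the third of the granulocyte course the difference was -0.39 and did not pass (adjusted p = 0.203). In the knockout Mertk was higher (31.6 ± 2.06 against 22.2 ± 1.95 TPM), without overlap, at 0.49 ± 0.23 (adjusted p = 0.0801). The knockout difference passed when those groups alone were fitted (adjusted p = 0.00466) or with a pseudocount of 5 TPM (0.43, adjusted p = 0.0385). The difference of these differences was 1.06 ± 0.32 and did not pass (adjusted p = 0.0747). It passed in 5 alternatives, among them 2 of 12 with 1 library left out and the setting added after the data were seen. Examples were median-of-ratios scaling (1.07, adjusted p = 0.0314) and the fit without the third control replicate of the macrophage course (1.30, adjusted p = 0.0184). Without the third control replicate of the granulocyte course it was 0.88 and did not pass (adjusted p = 0.159). No member passed that interaction with limma, 2 had an unadjusted p under 0.05, and 4.28% of all genes passed.

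At day 5 no member differed between the courses in controls with limma, where 3.01% of genes did, and 1, Pros1, had an unadjusted p under 0.05 and passed without the first control replicate of the macrophage course (-0.95, adjusted p = 0.0365). In the knockout Axl was higher in the macrophage course (5.93 to 6.95 TPM against 2.26 to 3.60, 0.88 ± 0.21, adjusted p = 0.00658), where 3.21% of genes were (963 higher against 881 lower after median-of-ratios scaling). The difference between genotypes at day 5 passed for no member with limma (0.251% of genes), and 1, Axl, had an unadjusted p under 0.05.

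Set side by side, the receptors made up a different mixture in knockout cells of day 7. In controls Mertk made up 50.6 ± 3.20% (SD, n = 3) of the summed TPM of the 3 receptors in the macrophage course, and 60.5 ± 4.11% in granulocyte cultures, with Axl at 47.8 ± 2.91% and 37.5 ± 4.26%. In the knockout Mertk made up 85.4 ± 2.41% and 88.4 ± 1.56%, and Axl 13.8 ± 2.74% and 9.85 ± 2.04%. The lowest knockout library was at 84.0% and the highest control at 65.2%, over both courses. Each comparison of 3 libraries with 3 gave an exact two-sided permutation p of 0.1, the smallest the design allows. At day 3 the order was the other way, with Mertk at 63.0 ± 1.72% in control and 34.7 ± 13.1% in knockout libraries, and Axl at 21.6 ± 3.24% and 47.9 ± 15.2%. Fresh HSPCs of both genotypes were dominated by Axl, at 80.7 ± 1.42% in control and 83.0 ± 7.81% in knockout, on a summed receptor level of only 1.20 ± 0.16 and 0.827 ± 0.368 TPM.

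Among the ligands Gas6 made up 77.7 ± 9.89% of the summed TPM in controls and 86.1 ± 2.36% in the knockout at day 7 of the macrophage course, and these ranges overlapped. For the granulocyte course Gas6 made up 38.4 ± 11.3% and 31.7 ± 14.6%, so that Pros1 had the larger mean share. The third control replicate was the exception there, with Gas6 at 51.4% against 30.9% and 33.0% in the other two control libraries, and it was also the highest control of the macrophage course, at 88.8% against 69.7% and 74.7%. At day 3 Gas6 made up 20.7 ± 0.986% of ligand transcripts in control and 5.73 ± 0.926% in knockout libraries, without overlap (exact permutation p = 0.1, again the smallest possible).

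**Figure D3:**
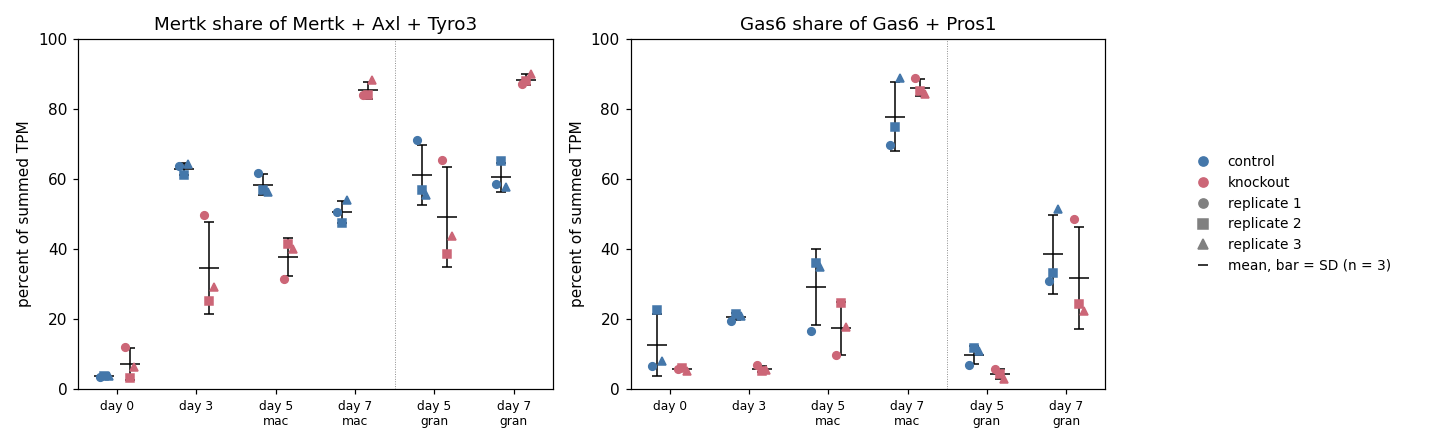
Percent of summed TPM (vertical axes, 0 to 100) taken by Mertk among the 3 receptors (left) and by Gas6 among the 2 ligands (right) in each library by day and course (horizontal axes). Points are libraries and black marks the mean and SD of 3. At day 7 all knockout libraries lie at 84.0% or more for Mertk and all control libraries at 65.2% or less.

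Ordered over the 12 groups, Mertk was highest in knockout macrophage cultures of day 7, apart from all other groups, and the 5 groups that followed (both granulocyte cultures of day 7, control macrophage cultures of day 7 and control cultures of day 5 in both courses) overlapped each with the next. Axl was highest in the 2 control groups of day 7, which overlapped each other and no other group. Tyro3 was highest in control cells of day 3 and of day 5 in both courses, 3 groups that overlapped, and lowest in fresh knockout HSPCs. Gas6 was highest in the 2 macrophage groups of day 7, which overlapped. Pros1 had no group apart from its neighbours except fresh knockout HSPCs, at 2.31, 2.33 and 2.51 TPM, the lowest of all. Its group means ran from 2.38 to 14.1 TPM.

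A list of 24 other receptors and bridging proteins for phosphatidylserine put these genes beside their functional relatives, 19 of which were tested. At day 3, 13 of the 19 were lower in the knockout and 1 higher, with a median of -1.20 against -0.01 over all genes. C1qa, a subunit of the complement component that also coats dying cells, stood at 0.323 TPM in the knockout against 9.96 in control (-3.01 ± 0.28, adjusted p = 6e-08), and Lrp1, a large endocytic receptor, at 3.49 against 17.2 (-2.02 ± 0.18, adjusted p = 4.4e-08). At day 5, 13 were lower in the macrophage course (11 after median-of-ratios scaling) and 11 in granulocyte cultures, with none higher in either. At day 7 of the macrophage course 5 were higher and 1 lower, the latter Scarf1, a scavenger receptor, at 1.51 against 3.70 TPM (-0.90 ± 0.14, adjusted p = 6.07e-05). The 5 included Stab1, another scavenger receptor of macrophages (0.83 ± 0.15, adjusted p = 0.000194). At day 7 of the granulocyte course 10 were lower and 3 higher, with Scarf1 again lower (-1.70 ± 0.13, adjusted p = 7.34e-09) and Stab1 lower (-1.30 ± 0.19, adjusted p = 1.98e-05). Scarf1 was the 1 list gene lower at all 6 stages.

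**Figure D4:**
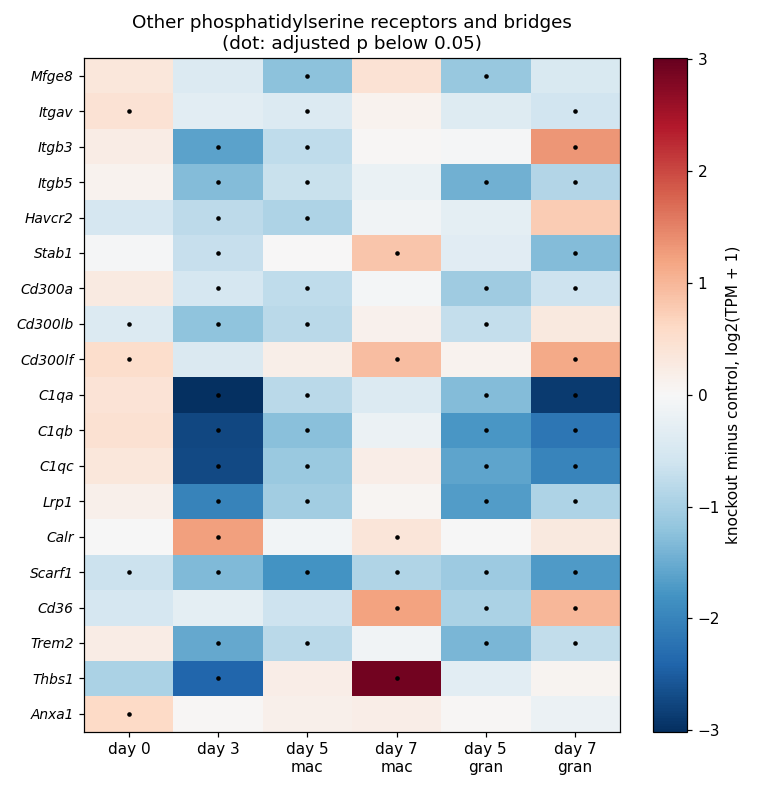
Knockout minus control on the log2(TPM + 1) scale (colour, blue lower and red higher) for the 19 tested genes of the list of other phosphatidylserine receptors and bridging proteins (rows) at the 6 stages (columns). A dot marks an adjusted p below 0.05: at day 3, 13 genes are lower and 1 higher, and at day 7 of the macrophage course 1 is lower and 5 are higher.

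Mfge8, Trem2 and C1qa were followed over days 3, 5 and 7, with no result given for C1qa at day 7 of the macrophage course. Mfge8, which bridges phosphatidylserine to integrins, was lower in the knockout at day 5 of the macrophage course (30.6 against 72.3 TPM, -1.22 ± 0.29, adjusted p = 0.00206) and of the granulocyte course (-1.14 ± 0.24, adjusted p = 0.000976), but did not pass at day 3 or day 7. Trem2, a lipid-sensing receptor of macrophages, was lower at day 3 (31.5 against 93.8 TPM, -1.53 ± 0.23), at day 5 of both courses (-0.81 ± 0.23 and -1.38 ± 0.26) and at day 7 of the granulocyte course (-0.75 ± 0.26), and did not pass at day 7 of the macrophage course (-0.10 ± 0.23). C1qa was lower at day 5 of both courses and at day 7 of the granulocyte course (-2.89 ± 0.42), where it stood at 2.23 against 17.9 TPM.

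Counts in the list of phosphatidylserine receptors above and in the lists that follow are to be read against all tested genes. Of these, 26.7% were lower at day 3, and 37.9% and 22.8% at day 5 of the macrophage and granulocyte courses. At day 7 of the macrophage course 27.4% were higher and 12.5% lower. At day 7 of the granulocyte course 3825 (32.1%) of 11905 were higher and 1425 lower, or 2601 and 2779 after median-of-ratios scaling.

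Regulators known to act on Mertk or Axl were followed in a list of 14, all tested. At day 3, 7 (50.0%) were lower and none higher, among them Maf, a transcription factor of macrophages (-1.38 ± 0.12). Nr1h3, which encodes the sterol sensor LXR alpha, known to drive Mertk after uptake of dying cells, stood at 1.86 TPM in the knockout against 4.36 in control (-0.90 ± 0.24, adjusted p = 0.00311). It was lower at day 5 of the macrophage course (-0.80 ± 0.24) and of the granulocyte course (3.23 against 15.96 TPM, -2.005 ± 0.25, adjusted p = 5.18e-06), and did not pass at day 7 of either (0.23 ± 0.24 and -0.16 ± 0.25). Rxra, the partner of LXR, was lower at day 5 of the macrophage course (-1.02 ± 0.14) and of the granulocyte course (-1.36 ± 0.14). At day 7 of the macrophage course 3 of the 14 were higher and none lower. After median-of-ratios scaling, which shifted the all-gene median by over 0.1 there, 1 was higher and 1 lower. At day 5 of the macrophage course the list's 8 lower and 1 higher genes became 2 and 1.

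Known LXR targets, a list of 11, had 45.5% lower and none higher in the knockout at day 0, beside 1222 lower of 11953 tested genes. After median-of-ratios scaling 6 were lower there (median -0.61), beside 1890 of all genes. At day 3 the list had 7 (63.6%) lower and 1 higher (median -1.18). At day 5 it had 9 (81.8%) lower in the macrophage course (6 after median-of-ratios scaling) and 8 in the granulocyte course, with none higher. At day 7 the targets stayed mostly lower in the granulocyte course (9 lower, median -0.64), and in the macrophage course 4 were lower and 1 higher with a median of -0.02. The 2 named there were fatty acid desaturases, Scd1 (-1.81 ± 0.29) and Scd2 (-1.83 ± 0.30). The cholesterol exporter Abca1 was lower at day 3 (-1.18 ± 0.26, adjusted p = 0.000796).

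Genes that activate the ligands or cut the receptors were mixed. Of 9 tested in a list of 12, 4 (44.4%) were lower and 2 higher at day 3, 3 (33.3%) lower at day 5 of each course, and 2 higher and 1 lower at day 7 of each course. Timp3, an inhibitor of the sheddase Adam17, was lower at day 3 (6.58 against 31.7 TPM, -2.15 ± 0.28, adjusted p = 2.99e-06) and higher at day 7 of the granulocyte course (10.8 against 2.24 TPM, 1.85 ± 0.27, adjusted p = 2.09e-05). Adam17, which sheds Mertk, was lower at day 5 of the granulocyte course (-0.49 ± 0.11). Ggcx, the carboxylase that activates both ligands, was higher at day 7 of the macrophage course (0.31 ± 0.10, adjusted p = 0.0214), a list that held no higher gene there after median-of-ratios scaling. Lgals3, a galectin also reported as a Mertk ligand, was lower at day 3 (558 against 1145 TPM, -1.04 ± 0.27).

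Of 22 tested engulfment genes, 2 were higher and 5 lower (22.7%) at day 3, near the share over all genes, 1 and 10 (45.5%) at day 5 of the macrophage course, and 3 and 0 at day 7 of that course, counts that became 4 and 3 and then 2 and 4 at the last 2 stages after median-of-ratios scaling. In the granulocyte course they were 0 and 4 at day 5 and 7 and 2 at day 7 (5 and 5, and 2 and 5, after that scaling). Ptk2, focal adhesion kinase, which acts with integrins, was higher at day 7 of the macrophage (1.004 ± 0.16, adjusted p = 7.73e-05) and granulocyte courses (1.19 ± 0.16, adjusted p = 7.28e-06). Of 9 tested genes of phosphatidylserine exposure none was higher at day 5 and 7 were lower in the macrophage course (2 after scaling), with Plscr3, a scramblase-family protein, lower at day 3 and at day 5 of both courses (-0.82 ± 0.13, -1.14 ± 0.13 and -0.83 ± 0.13).

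TAM signalling is known to induce Socs1 and Socs3, inhibitors of cytokine receptors. In a list of 8 tested feedback genes 50% were higher and none lower at day 0, beside 1568 higher of 11953 tested genes. After median-of-ratios scaling 2 were higher there. At day 3, 5 were lower and none higher, with Socs1 at 39.7 against 60.7 TPM (-0.61 ± 0.14, adjusted p = 0.00102). At day 5, 12.5% were higher and 12.5% lower in each course. After scaling 5 were higher and 1 lower at day 5 of the macrophage course, and 1 and 1 in the granulocyte course. At day 7 of the macrophage course 5 were higher and none lower, with Socs1 at 5.26 against 2.02 TPM (1.07 ± 0.14, adjusted p = 8.09e-06) and Socs3 at 11.04 against 5.00 TPM (0.94 ± 0.19, adjusted p = 0.000536). At day 7 of the granulocyte course 3 of the 8 were higher and 1 lower, with a median of 0.004 (2 higher against 3 lower and a median of -0.20 with median-of-ratios scaling). Socs1 and Socs3 were both higher there, Socs1 at 20.8 against 2.52 TPM (2.58 ± 0.25) and Socs3 at 129.8 against 41.5 TPM (1.60 ± 0.16).

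Csf1r, the receptor for M-CSF, was a further point of comparison for the day 7 levels, since M-CSF was the cytokine of the last step. It did not pass at day 7 of the macrophage course (235.9 against 204.1 TPM, 0.22 ± 0.11, adjusted p = 0.115), where 6 of 15 tested macrophage markers were higher and 3 lower (4 and 3 after median-of-ratios scaling), with a median of 0.22. In the granulocyte course of day 7 it was lower (131.0 against 258.5 TPM, -0.96 ± 0.12, adjusted p = 4.75e-06), with 10 of 15 markers lower and 2 higher and a marker sum of 17010 to 18920 TPM against 21820 to 28020 in control. Markers of other cells moved as well. In the macrophage course megakaryocyte and platelet markers summed to 1839 to 2270 TPM in knockout against 424.7 to 450.2 in control (3 of 11 higher and 1 lower), and granulocyte markers to 28710 to 43220 against 37350 to 75240 (2 of 13 higher and 6 lower). Dendritic cell markers had 6 of 9 higher and 1 lower, with sums of 89.9 to 112.6 against 72.7 to 181.3 TPM. Stem and progenitor markers had 50% higher and none lower, with sums of 266.8 to 274.0 against 195.6 to 240.5 TPM. Mast cell and basophil markers had 44.4% higher and none lower, with sums of 320.0 to 691.9 against 79.11 to 524.5 TPM. At the same day of the granulocyte course 8 of 11 megakaryocyte and platelet markers, 8 of 10 stem and progenitor markers and 6 of 9 each of the mast cell and basophil and the dendritic cell markers were higher, with 0, 1, 0 and 0 lower. All markers of these lists were above 0 in each of these groups except Tpsab1, a mast cell gene at 0 in the macrophage course. The part of these marker levels in the day 7 values of Mertk and Axl was not tested.

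The genes whose profile over the 12 group means was most like each member, among 12061 genes, are given as a description. For Mertk these were Lmbrd1 (Pearson's r of 0.986), Pld3 (0.983), Shisa5 (0.982), Serpinb8 (0.982) and Mitf (0.979), and for Gas6 Exoc6b (0.981), Snapin (0.978), Obfc1 (0.975), Ang (0.972) and Asph (0.971). For Axl the values were lower: Penk 0.934, Cdc25b 0.918, Cav1 0.908, Pde8a 0.906 and Fcgr1 0.901. Tyro3 was nearest to Fzd4 (0.958), Plekha6 (0.955), Atf5 (0.955), C1galt1 (0.955) and Hal (0.948), and Pros1 to Fgfr1 (0.949), Pla2g7 (0.949), Picalm (0.943), Stxbp3 (0.938) and Zfand5 (0.933). Among the members, Mertk and Pros1 had the highest r (0.867) and Tyro3 and Gas6 the lowest (-0.00872). The groups follow one another in the same courses and differ in composition, so these values carry no test.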

How the data were processed

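The authors deposited TPM values in 2 tables, 1 for each course, with 24411 gene symbols. Day 0 and day 3 libraries stand in both (12 columns, equal in value). The submitters' processing notes name RSEM, DESeq2 1.38.3 and mm10. Libraries were made with the KAPA stranded kit, per the labels' protocols. TPM sums to a fixed total, so that genes taking a larger share lower the others: 2 short structural RNAs took 2.29% to 16.1%, 85 histone genes 3.63% to 17.4% and the 2 calprotectin genes 0.109% to 23.4% of a library. It keeps no depth, so no counting interval is given.

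The labels gave each library's genotype, day and course. Values were tested as log2(TPM + 1), which understates the change of low genes, with limma 3.58.1 in R 4.3.3 (moderated variance with trend). A gene entered a fit if 3 of its libraries reached 1 TPM. Each fit had 24 libraries: 11953 genes entered for the macrophage course, 11905 for the granulocyte course and 11553 for days 5 and 7 of both, the 5 members among them in each. P-values of the 25 comparisons were adjusted over all tested genes (Benjamini-Hochberg, called below 0.05). Shares were tested with an exact permutation test. The fit was tested on simulated data with known changes. Members and gene lists were chosen with earlier results of these data known. Genes other than members were named by rule: per list and comparison up to 2 with the smallest p among those passing, and Nr1h3, Mfge8, Trem2, C1qa and Csf1r whether or not they passed. The text does not give these last genes at every stage. The most alike genes were the 5 with the highest Pearson's r. The markers Ly6g and Ighm were not analysed here. A gene that the naming rule also selects is not reported here. Promoters came from RefSeq (GRCm38.p6).

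The protocol divided each culture between the courses, and deviations of equal replicate numbers from their group means correlated at 0.231 or more between courses. Unlike numbers reached 0.614 and 0.43 in controls of days 5 and 7, and 0.288 and 0.348 in the knockout. Only at day 5 of the knockout did every equal number lie above them (lowest 0.302), so these correlations alone do not settle the pairing. Between genotypes the numbers paired libraries by this measure at day 5 of the macrophage course (0.3, 0.182 and 0.267) and not at the other stages. The settings changed were the pseudocount (0.1 or 5 TPM), the filter (none, or 5 TPM), scaling by median of ratios, TPM recomputed without the structural RNA, histone and calprotectin genes, fits of a contrast's groups alone, a replicate block, and each library left out in turn. Leaving out the third control replicate of day 7 in both courses was added after the data were seen.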

Additional observations from a re-analysis of the deposited data

Results flagged for a closer look

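The knockout effect, as log2 difference from control, changed between stages by the interaction test in limma for these results. Between day 0 and day 3 the effect changed by -1.70 ± 0.24 (adjusted p = 5.9e-05) for Mertk. Over the same days the change was -1.39 ± 0.44 (adjusted p = 0.0209) for Gas6, -0.91 ± 0.29 (adjusted p = 0.0198) for Pros1 and -0.45 ± 0.16 (adjusted p = 0.0342) for Tyro3. Between day 3 and day 7 of the macrophage course it changed by 2.98 ± 0.24 (adjusted p = 3.93e-08) for Mertk and -0.89 ± 0.25 (adjusted p = 0.01) for Axl. In that course the ligands gave 2.41 ± 0.44 (adjusted p = 0.00036) for Gas6 and 1.22 ± 0.29 (adjusted p = 0.00289) for Pros1, and Tyro3 gave 0.53 ± 0.16 (adjusted p = 0.0133). Between day 3 and day 7 of the granulocyte course it changed by 1.92 ± 0.29 (adjusted p = 4.09e-05) for Mertk and -1.69 ± 0.31 (adjusted p = 0.000379) for Axl. In that course the ligands gave 1.59 ± 0.45 (adjusted p = 0.0104) for Gas6 and 1.55 ± 0.29 (adjusted p = 0.000361) for Pros1, and Tyro3 gave 0.47 ± 0.14 (adjusted p = 0.0132). With a pseudocount of 0.1 TPM the calls of Tyro3 in both courses and of Axl in the macrophage course were lost (adjusted p of 0.0653, 0.0686 and 0.0608). With 5 TPM Gas6 fell short in the granulocyte course (0.52, adjusted p = 0.175) and between day 0 and day 3 (-0.57, adjusted p = 0.246), where Tyro3 fell short with 0.1 TPM (-0.32, adjusted p = 0.500). By ratio of means Tyro3 rose more in the knockout from day 0 to day 3, 10.1 against 8.59 in control. Axl was the 1 member whose change from day 3 to day 7 was negative in both courses.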

How the results depend on the processing

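Member calls kept their direction and side of the threshold in 830 of 910 values with a library left out, where 34 reversed, 14 gained and 32 lost a call, and in 904 of 956 under other settings, where 12 reversed, 24 gained and 16 lost it. Every reversed value belonged to a difference that had not passed. TPM holds no depth, so the precision of low genes such as Tyro3 at day 0 could not be given.

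The replicate number as a block, shared by both genotypes, changed no member call and no count by over 1.5 times. With it 6337 genes passed between genotypes at day 3 (6355 without), 5154 at day 5 of the macrophage course (5143) and 5482 between control courses at day 7 (5061).

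Counts of all genes moved as follows, and the cause was not tested. Fitting a contrast's groups alone gave 2493 for the knockout at day 5 of the granulocyte course (3806). For control steps it gave 3909 (6007) and 2756 (4677) in the macrophage course and 3335 (5268) and 2304 (4521) in the granulocyte course. For knockout day 3 to day 5 of the granulocyte course it gave 3343 (1758), and between courses at day 5 158 in controls (348) and 3980 in the knockout (2090). Without the structural RNA, histone and calprotectin genes 4512 passed at day 0 (2790). The interaction of course and genotype at day 5 (29) gave 16 and 54 with pseudocounts of 0.1 and 5 TPM, 104 with no filter, 6 with a filter of 5 TPM, 68 after median-of-ratios scaling and 88 without the named gene sets. At day 7 (495) it gave 285 with the filter of 5 TPM and 775 without those sets.

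Member counts moved too. A pseudocount of 0.1 TPM gave 1 at day 0 (0), 3 for the day 3 to day 7 interaction of the macrophage course (5) and 2 between knockout courses at day 5 (1), as did leaving out the gene sets and fitting those groups alone. Median-of-ratios scaling gave 2 at day 7 of the granulocyte course (1). Knockout day 3 to day 5 of the granulocyte course gave 1 (2) with a pseudocount of 5 TPM, where Mertk lost its call (adjusted p = 0.0674). It also gave 1 with a filter of 5 TPM, which left Tyro3 untested. Control courses at day 7 gave 2 (1) with a pseudocount or filter of 5 TPM, after scaling, without the gene sets and without the third control replicate in both courses. The interaction at day 7 gave 1 (0) with a pseudocount of 5 TPM, after scaling and without that replicate.

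With 1 library left out, all-gene counts ran from 4 to 111 and from 279 to 928 for the interactions of course and genotype at days 5 and 7, from 191 to 438 and from 1140 to 1959 between courses at day 5 in control and knockout, and from 790 to 1527 for knockout day 3 to day 5 of the granulocyte course. Member counts ran from 1 to 4 for the day 0 to day 3 interaction and control day 3 to day 5 of the granulocyte course. They ran from 1 to 2 at day 7 of the granulocyte course, for knockout day 3 to day 5 there and between control courses at day 7, and from 0 to 1 between control courses at day 5 and for the interaction at day 7.

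Reversed log2 differences were as follows. Pros1 gave 0.0915 for control day 5 to day 7 of the granulocyte course and 0.0776 for knockout day 3 to day 5 of the macrophage course after scaling. Between control courses at day 7 it gave 0.0239 without the third replicate in both. Axl gave -0.0002138 for the day 0 to day 3 interaction with a pseudocount of 5 TPM. Between control courses at day 7 Axl gave -0.002466 with that pseudocount, -0.19 after scaling and -0.10 without the gene sets. For the day 5 interaction Tyro3 gave 0.16 with a pseudocount of 0.1 TPM, 0.0426 after scaling and 0.0223 without the gene sets. Gas6 gave 0.0308 there with a pseudocount of 0.1 TPM, and Pros1 0.0414 with 5 TPM and 0.10 after scaling.

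With 1 library left out, values ran across 0 for 15 differences. Axl ran from -0.27 to 0.0244 for the knockout at day 3, from -0.0493 to 0.26 for the day 0 to day 3 interaction, and from -0.15 to 0.0230 and -0.16 to 0.27 between control courses at days 5 and 7. Tyro3 ran from -0.14 to 0.00861 for the knockout at day 7 of the macrophage course, from -0.0547 to 0.19 between control courses at day 5, and from -0.0904 to 0.16 and -0.007988 to 0.15 for the interactions at days 5 and 7. Pros1 ran from -0.16 to 0.15 for the knockout at day 7 of the macrophage course, from -0.34 to 0.0624 for control day 5 to day 7 of the granulocyte course, from -0.17 to 0.26 for the day 5 interaction and from -0.30 to 0.10 between control courses at day 7. Gas6 ran from -0.52 to 0.42 for the knockout at day 7 of the granulocyte course and from -0.0599 to 0.11 for knockout day 3 to day 5 there. Mertk ran from -0.30 to 0.0485 between control courses at day 5.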
